A study of Mus musculus with 8 samples.

Results

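Imprinted genes, led by the long non-coding RNA Meg3, were followed through KL cells (c-Kit+ Lin-) from the bone marrow of SPF (specific-pathogen-free) mice and of CVT mice, which were co-housed in a conventional facility. The members were 6 named genes, Meg3, Rian, Mirg, H19, Grb10 and Ndn, and 5 of them have a row among the 27998 genes of the count table. Rian is not analysed here. The members were chosen by their UMI levels in earlier results of these same cells, in which several stood high in stem cells, so their levels across cell classes are given as a description, with no test. The tests below address what that choice did not use, namely the housing comparison over pools and the genes that differed within stem cells between those with and without Meg3.

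An imprinted gene is expressed mainly from the copy inherited from 1 parent, because a control region near it was methylated in the egg or the sperm. Meg3, Rian and Mirg are non-coding RNAs of a maternally expressed domain, in which Dlk1, Rtl1 and Dio3 are expressed from the paternal copy. H19 is a maternally expressed non-coding RNA beside the growth factor gene Igf2, Grb10 encodes an adaptor protein that restrains insulin and growth factor receptor signalling, and Ndn encodes necdin, a protein of the MAGE family that restrains cell division. In haematopoiesis several imprinted genes are known for roles in holding long-term haematopoietic stem cells (LTHSC) in a resting state, and the Meg3 domain and necdin are among them. These 3' libraries do not tell the parental copies apart.

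Cells came from female C57BL/6 mice aged 3–4 months, 10 mice per housing group, and were sorted as c-Kit+ cells that lacked markers of mature T, B, myeloid and erythroid cells. Both groups began as SPF mice of this strain without other treatment, and CVT mice had then spent 1 month with mice born in a conventional facility. SPF mice gave pools 1, 2, 7 and 8 and CVT mice gave pools 3, 4, 5 and 6, each pool holding marrow of 2 or 3 mice, so that n is 4 pools per group and spread between single mice cannot be seen. Pools 1 to 4 held the lower-numbered mice and pools 5 to 8 the higher-numbered ones, and these sets of pools are treated as a possible batch.

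The sequences are shown because imprinting acts through CpG methylation and because Meg3 and H19 each carry a microRNA. Whether the printed windows lie in the methylated control regions of these genes was not examined. All were copied from RefSeq (GRCm38.p6), where the start windows used here covered 5 of the 6 members and not H19, while the counts were made on mm9. The capitals mark CpG dinucleotides in the Meg3 window, which runs from 250 bases before to 50 bases after the start, and in the Grb10 window, the 250 bases before its upstream start.
Meg3 chr12:109540746-109541045 (+ strand): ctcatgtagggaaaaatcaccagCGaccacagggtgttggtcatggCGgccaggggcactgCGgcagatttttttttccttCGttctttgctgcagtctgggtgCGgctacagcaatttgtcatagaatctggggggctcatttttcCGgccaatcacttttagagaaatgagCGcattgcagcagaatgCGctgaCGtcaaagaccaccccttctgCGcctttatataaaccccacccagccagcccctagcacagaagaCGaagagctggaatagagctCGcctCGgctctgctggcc
Grb10 chr11:12037421-12037670 (- strand): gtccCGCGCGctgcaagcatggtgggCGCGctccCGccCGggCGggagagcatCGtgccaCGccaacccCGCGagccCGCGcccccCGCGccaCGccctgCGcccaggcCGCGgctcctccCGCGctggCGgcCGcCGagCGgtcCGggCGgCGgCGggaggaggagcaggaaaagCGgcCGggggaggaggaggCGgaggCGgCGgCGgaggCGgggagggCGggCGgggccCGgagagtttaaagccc
In the 250 bases before the start, Meg3 held 10 CpG with 52.4% G and C, and 37.8% of 32851 RefSeq start windows of that length held at least as many. The same stretch of Grb10 held 40 CpG with 81.2% G and C, which 1.31% of windows matched or passed, against a median of 6 CpG in all windows. The windows of Mirg, Ndn and Rian held 10, 5 and 0 CpG. Meg3 and Grb10 each have a second start in RefSeq, and the 250 bases before it held 0 CpG for Meg3 and 8 for Grb10, which 43.0% of windows matched or passed. The hexamer TGCCGC, which the imprint-maintaining protein ZFP57 is known to bind when methylated, was searched on both strands and occurred 1 time in the Meg3 stretch and in none of the windows of the second Meg3 start, both Grb10 starts, Mirg, Ndn and Rian, while 8.68% of all windows held it. Methylation was not measured here.

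The mature microRNAs from Meg3 and H19 follow with their seed, bases 2 to 8, in capitals.
mmu-miR-770-5p: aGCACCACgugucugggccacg
mmu-miR-770-3p: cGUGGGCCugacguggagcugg
mmu-miR-675-5p: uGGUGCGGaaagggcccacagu
mmu-miR-675-3p: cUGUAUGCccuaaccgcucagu
The first pair lies within Meg3 and the second within H19. None of the 4 seeds was shared with another of the 1738 mature mouse microRNAs in RefSeq. The libraries captured polyadenylated RNA, so the UMIs below count the host transcripts and not these mature forms.

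The table held 29891 cells with 335844251 unique molecular identifiers (UMIs, each standing for 1 captured transcript), from 1888 to 4845 cells and from 19041749 to 59812346 UMIs per pool. Cells were clustered without the imprinted genes, and a cluster was called LTHSC-like, MPP-like (multipotent progenitor), LMPP-like (lymphoid multipotent), CMP-like (common myeloid), MEP-like (megakaryocyte-erythrocyte) or GMP-like (granulocyte-monocyte) from marker genes. LTHSC-like cells formed 1 cluster of 1194 cells, led by Hlf, Ly6a, Mecom and Procr that held 3.99% of the cells and 2.10% of the UMIs. A total of 1048 cells shared their barcode with a cell of another pool. Of the cells with Meg3, 8 did, and in 0 of those pairs did both cells hold Meg3.

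Meg3 was high in LTHSC-like cells and low in every other class. Of its 523 UMIs, 304 (58.1%) lay in LTHSC-like cells. Its level there was 61.1, 53.5, 54.3 and 35.5 CPM (UMIs per 1000000 UMIs of the class) in SPF pools 1, 2, 7 and 8 and 33.0, 42.4, 34.5 and 44.4 CPM in CVT pools 3, 4, 5 and 6. The mean was 44.8 ± 10.49 CPM (SD, n = 8). LMPP-like cells followed with 4.09 ± 3.24 CPM, MPP-like cells with 2.78 ± 2.20 CPM and CMP-like cells with 0.919 ± 1.10 CPM (SD, n = 8), and MEP-like and GMP-like cells held 0.147 and 0.124 CPM. The lowest LTHSC-like pool, at 33.0 CPM, stood above the highest LMPP-like pool, at 8.67 CPM. From LMPP-like cells down, each class overlapped the next over pools.

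Meg3 outside LTHSC-like cells was not spread evenly. In LMPP-like cells 90 of 96 UMIs came from 1 cluster led by Wfdc17, Dntt and Flt3, at 6.68 CPM, and in MPP-like cells 58 of 60 came from 1 cluster that Hlf led, at 5.18 CPM. A further 10 UMIs lay in 3 cells of a small CMP-like cluster of 91 cells. GMP-like cells held 9 UMIs in 3 cells, of which 7 were in 1 cell. As a background, 6 of 4341 MEP-like cells (0.138%) held a Meg3 UMI at a median of 18013 UMIs per cell, against 110 of 1194 LTHSC-like cells (9.21%) at a median of 5474.5. Thinned to 2759 UMIs in every cell, the total of the smallest one, these shares were 0 of 4341, which allows up to 0.0691%, and 72 of 1194 (6.03%).

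Ndn ranked the classes in a similar order. LTHSC-like cells held 158 of its 383 UMIs (41.3%). SPF pools 1, 2, 7 and 8 stood at 39.3, 18.7, 31.3 and 20.5 CPM, and CVT pools 3, 4, 5 and 6 at 9.44, 39.9, 21.7 and 16.4 CPM. Pools spread more widely for Ndn than for Meg3 relative to the mean, with a mean of 24.7 ± 11.02 CPM (SD, n = 8), and the lowest pool rested on 3 cells with a UMI. MPP-like cells came next at 2.91 ± 0.608 CPM and LMPP-like cells at 2.001 ± 1.10 CPM (SD, n = 8), while CMP-like, GMP-like and MEP-like cells held 0.740, 0.222 and 0.121 CPM. Every LTHSC-like pool stood above every MPP-like pool, whose highest was 3.82 CPM, and the lower classes overlapped their neighbours.

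Grb10 showed another distribution, with high levels in both stem and erythroid cells. LTHSC-like pools held 34.9, 28.6, 23.1 and 20.01 CPM in SPF pools 1, 2, 7 and 8 and 42.5, 27.4, 27.6 and 25.1 CPM in CVT pools 3, 4, 5 and 6. The mean of 28.6 ± 7.08 CPM in LTHSC-like cells was followed by 20.6 ± 2.88 CPM in MEP-like and 17.5 ± 1.86 CPM in CMP-like cells (SD, n = 8). LTHSC-like and MEP-like pools overlapped, although the LTHSC-like value was the higher one in 7 of 8 pools, and MEP-like and CMP-like pools overlapped too. MPP-like cells stood below all of these at 6.49 ± 1.155 CPM with no overlap, GMP-like cells held 3.38 ± 1.08 CPM and LMPP-like cells 1.38 ± 0.598 CPM (SD, n = 8). Of the 3266 Grb10 UMIs, 51.5% lay in MEP-like cells, which are deeply sequenced. The share of cells with a Grb10 UMI was therefore higher in MEP-like cells (29.9%) than in LTHSC-like cells (14.1%), but after thinning it was 5.71% and 6.53%.

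**Figure D1:**
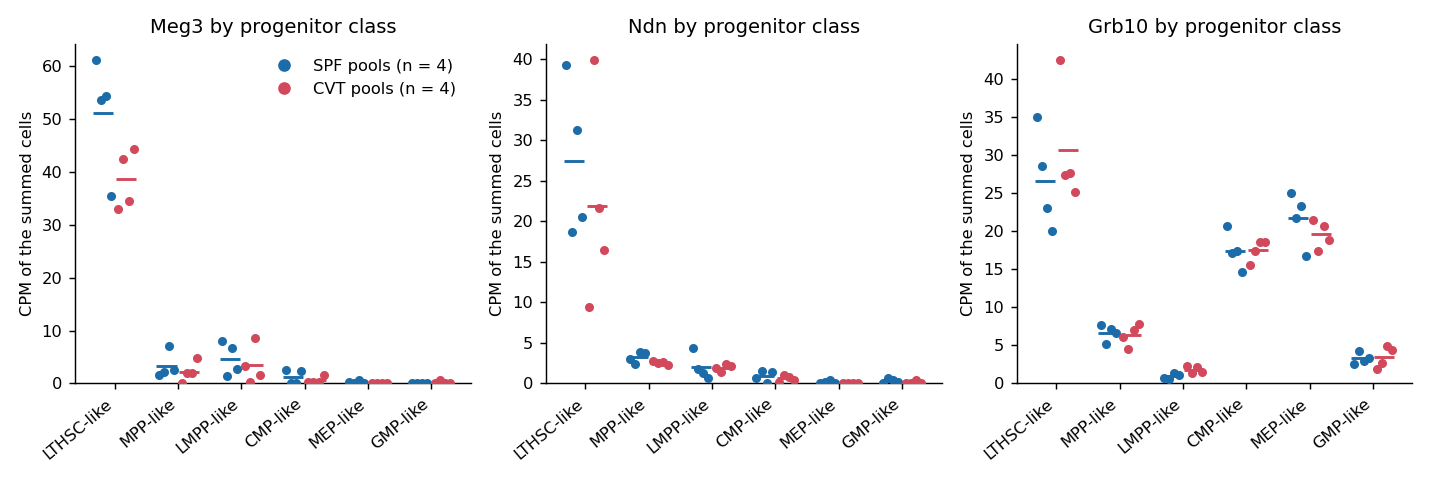
Level of Meg3, Ndn and Grb10 in CPM (y axis) of each pool's summed UMIs in 6 progenitor classes (x axis), with 1 point per pool, SPF pools in blue and CVT pools in red, and bars at the group means. Meg3 and Ndn stand high in LTHSC-like cells alone among these classes, with means of 44.8 and 24.7 CPM, whereas Grb10 is also present in CMP-like and MEP-like cells at 17.5 and 20.6 CPM.

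The values in LTHSC-like cells depend on where the class is drawn. When the imprinted genes were kept among the genes used for clustering, a cluster of 1121 cells led by Hlf, Ltb and Ly6a was LTHSC-like. A further cluster of 1791 cells, led by Hlf and Gm19590 with 4 LTHSC and 4 MPP markers, took the same name. In the main clustering a cluster of 1657 cells led by Hlf and Gm19590 was MPP-like. The class thus grew to 2912 cells and its levels fell to 20.4 CPM for Meg3, 14.9 CPM for Grb10 and 11.1 CPM for Ndn. Levels of the 1121 cells alone are not given here. Markers of other cell types were summed in LTHSC-like cells with and without Meg3, and their part in the Meg3 level was not tested. Of 11 stromal markers, 4 were found in LTHSC-like cells with Meg3, at 18.8 CPM in sum and 0 to 36.1 CPM in single pools, against 9 markers and 38.2 CPM (2.68 to 168 CPM) in those without, and Col1a1, Col3a1, Pdgfra, Dcn, Lum, Kitl and Adipoq were at 0 in the former. For 9 endothelial markers the sums were 220.5 (142 to 379) and 197.9 CPM (179 to 217), mostly from Egfl7, Emcn and Tie1, with Cdh5, Flt1, Stab2 and Fabp4 at 0 in cells with Meg3. For 7 T and NK cell markers, which gave 115.7 (17.7 to 226) and 168.5 CPM (120 to 265), Cd3e, Cd3d and Gzma were at 0 there. Of the markers at 0, Col3a1, Lum, Cdh5, Stab2, Cd3e and Gzma were at 0 in cells without Meg3 too. Cells with Meg3 numbered 110 and those without 1084, so a 0 in the former says less.

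H19 and Mirg were rarely detected at this depth. H19 gave 9 UMIs in 7 cells, of which 4 lay in 2 cells of an unnamed cluster of 92 cells led by Ccl5, Tcf7, Rora, Id2, Zbtb16 and Gata3, and 3 in LTHSC-like cells. No H19 UMI was found in 2876 MPP-like, 2977 LMPP-like or 3087 GMP-like cells, which allows shares of up to 0.104%, 0.101% and 0.0972%. Mirg, which lies in the Meg3 domain, gave 3 UMIs, 1 each in an LTHSC-like, an MPP-like and a GMP-like cell. Meg3 thus outnumbered Mirg by 523 to 3 UMIs although both belong to 1 domain. Of the paternally expressed genes of that domain, Dlk1 gave 81 UMIs, 19 of them in LTHSC-like cells, and Rtl1 and Dio3 gave 0 in 29891 cells, which allows a share of up to 0.0100%.

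The genes most like each member were found over the 34 clusters, by Pearson's r of log2(CPM + 1) among 8171 genes that reached 20 CPM in some cluster. The clusters differ in depth and were built from many of the same genes, so these r values describe and are not tested. Meg3 was most like Bdh2 (r = 0.82), Gm4951 (0.81), Nkx2-3 (0.77), Npdc1 (0.76) and Clec1a (0.75), which all peaked in the LTHSC-like cluster. Ndn was most like Trpc6 and Gm20467 (both 0.88), Casp12 (0.87), Clec1a (0.87) and Gm16140 (0.87), so Clec1a stood on both lists. Grb10 was most like Hk1 (0.87), a hexokinase that begins glycolysis, Sdsl (0.87), Vamp5 (0.85), Phlda2 (0.83), itself an imprinted gene, and Gnb4 (0.83). The genes most like H19, Lrrc52 (0.98), Rxrg (0.98), Fgf15 (0.98), Tox2 (0.98) and Bcas1os2 (0.97), all peaked in the cluster of 92 cells and rest on its 4 UMIs. Between members, r over clusters was 0.74 for Meg3 with Ndn, 0.25 for Meg3 with Grb10 and 0.22 for Grb10 with Ndn.

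Within LTHSC-like cells Meg3 UMIs were gathered in few cells, which was not the case for the other members. Of 1194 cells, 1084 held none, 45 held 1, 23 held 2 and 42 held 3 or more, up to 13 UMIs in a cell. The 42 cells held 70.1% of the Meg3 UMIs of the class, and the 10 highest cells held 28.0%. A cell with Meg3 had 2.76 UMIs of it on average, against 1.153 for Ndn, 1.10 for Grb10 and 1.19 for Cdkn1c, an imprinted gene of like level that encodes the cell cycle inhibitor p57. After thinning, the variance of Meg3 over cells was 3.12 times its mean, and this ratio, which is near 1 when UMIs fall on cells at random, was 1.07 for Ndn, 1.05 for Grb10 and 1.17 for Cdkn1c. The gathering was also seen outside stem cells, with a ratio of 3.11 in LMPP-like cells, where 13 cells held 70.8% of the Meg3 UMIs, and of 2.35 in MPP-like cells. Over all pools, 67 cells held 3 or more Meg3 UMIs, but the weight of the highest cell varied between pools. In LTHSC-like cells it held from 8 of 71 UMIs (SPF pool 8) to 8 of 17 (CVT pool 4). In LMPP-like cells it held 6 of 7 in SPF pool 2 and 3 of 12 in SPF pool 8. In MPP-like cells it held 8 of 13 in SPF pool 7 and 4 of 15 in CVT pool 6. Of the 214 cells with Meg3, 16 were among the top 5% of doublet scores of their pool.

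**Figure D2:**
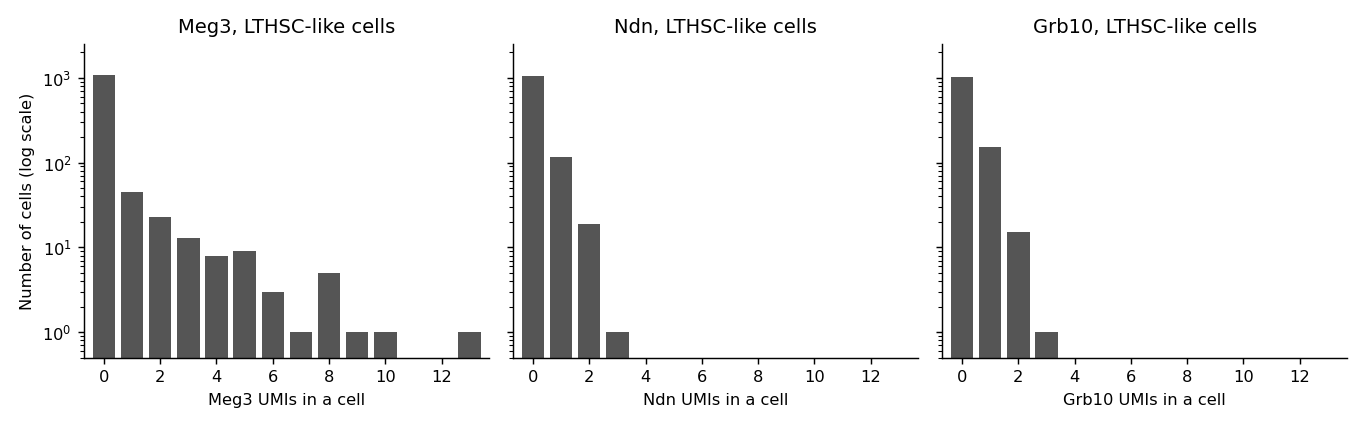
Number of LTHSC-like cells (y axis, log scale) by the UMIs of Meg3, Ndn or Grb10 that a cell held (x axis), over all 8 pools. Meg3 reaches 13 UMIs in a cell and 42 cells hold 3 or more, while no cell holds more than 3 UMIs of Ndn or Grb10.

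Ndn and Cdkn1c were found more often in LTHSC-like cells with Meg3 than in those without, in cells of like depth (median 5197.5 and 5530 UMIs). Ndn was present in 27 of 110 cells with Meg3 (24.5%, exact binomial 95% interval 16.8–33.7%) and in 110 of 1084 without (10.1%, 8.41–12.1%), and the share was higher with Meg3 in 6 of 8 pools. Cdkn1c was present in 38 of 110 (34.5%) and 181 of 1084 (16.7%), higher in 8 of 8 pools. Grb10 was present in 20.9% (13.74–29.7%) and 13.4% (11.4–15.5%), higher in 6 of 8 pools, and Dlk1 was found in 7 of 110 and 11 of 1084 cells. The intervals cover counting error only, and cells of a pool are not replicates, so no p is given. In thinned cells Ndn was present in 13 of 72 cells with Meg3 (18.1%, 9.98–28.9%) and 59 of 1122 without (5.26%, 4.03–6.73%), higher in 5 of 8 pools. Cdkn1c was present in 13 of 72 (18.1%, 9.98–28.9%) and 101 of 1122 (9.002%, 7.39–10.8%) of these cells, higher in 6 of 8 pools, and Grb10 in 13.9% (6.87–24.1%) and 6.06% (4.74–7.62%), also higher in 6 of 8 pools. Pairs without Meg3 were also found together more often in thinned cells, so this was not particular to Meg3. Cdkn1c was present in 21.8% of cells with Grb10 and 8.69% without, higher in 8 of 8 pools. With and without Ndn its share was 13.9% and 9.27%, higher in 5 of 8 pools. Grb10 was present in 13.9% of cells with Ndn and 6.06% without, higher in 6 of 8 pools. Of the 6 markers that named the cluster, 3 were read by Meg3 in the same way. After thinning, Procr was found in 30.6% of cells with Meg3 and 17.9% without, Mecom in 31.9% and 30.7% and Hlf in 52.8% and 57.2%, while with all UMIs Hlf was found in 81.8% and 79.4%. The UMIs of the 11 long-term stem cell markers together came to 1390 CPM (1042 to 1719 over pools) in cells with Meg3 and 998.9 CPM (894 to 1098) in cells without, with all UMIs, and the part of this difference in the results by Meg3 was not tested.

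To ask what else differed between LTHSC-like cells with and without a Meg3 UMI, counts were thinned, summed per pool for both kinds of cell and compared over all genes within pools. The 72 cells with Meg3 fell on every pool, from 4 cells in pools 3 and 4 to 16 in pool 8. Of 1375 genes tested, 54 (3.93%) passed an adjusted p of 0.05 in edgeR's quasi-likelihood test, 40 higher and 14 lower with Meg3, and 13 and 8 of these went the same way in 8 of 8 pools. Without SPF pool 2 the number was 30. With the class drawn otherwise, lower genes outnumbered higher ones. They were 57 and 30 at clustering resolution 1, and 33 and 22 with a gate on Procr with Hlf or Mecom. Apart from Meg3, which defined the cells, no member was tested, because Grb10, Ndn, H19 and Mirg were under the filter on low counts.

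Genes were named here only if they passed and went the same way in all 8 pools. Several of the higher ones are known from stem cells. Mllt3, a subunit of complexes that promote transcriptional elongation and a gene known to maintain human stem cells, rose most. Cells without Meg3 held 69.2 to 143 CPM of it over pools (median 96.7), and cells with Meg3 held 113 to 544 CPM (median 362). Its log2 fold change was 1.86 (SE 0.26, adjusted p = 2.7e-10). It was higher in 8 of 8 pools, as the naming rule required, although the ranges overlapped. Pik3r1, a regulatory subunit of phosphoinositide 3-kinase, rose by 1.19 (SE 0.28), and Pdzk1ip1, a small membrane protein gene used as a stem cell marker, by 0.92 (SE 0.23) on the log2 scale. Ifitm1, an interferon-induced membrane protein, rose by 0.80 (SE 0.08, adjusted p = 3.8e-18), from a median of 1339 to 2267 CPM over pools. The tetraspanin gene Cd63 rose by 0.50 (SE 0.16). Rps27rt (0.73) and the histocompatibility gene H2-K1 (0.34) also rose, but both have near-identical copies or relatives among which reads could be split.

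Among genes lower with Meg3 in every pool Gmfg, an actin regulator, fell most, and it fell by 0.99 on the log2 scale (SE 0.19, adjusted p = 8.4e-05). Pools held 506 to 617 CPM of it in cells without Meg3 and 90.6 to 385 CPM in cells with it, with no overlap. The low end with Meg3 rests on very few UMIs. Pools 3 and 4 had 4 cells with Meg3 each, at 2759 UMIs per thinned cell. Plac8 fell by 0.82 (SE 0.16) and H2afy, which encodes the histone variant macroH2A1, fell by 0.78 (SE 0.16). Tmsb10, an actin-binding thymosin, fell by 0.65 (SE 0.15), the RNA-binding protein gene Hnrnpa1 fell by 0.63 (SE 0.18) and the microtubule regulator Stmn1 fell by 0.58 (SE 0.14). Ptma fell by 0.41 (SE 0.08) and Ppia, which encodes cyclophilin A, fell by 0.25 (SE 0.07). Among these, H2afy, Tmsb10 and Ptma did not overlap between the cells with and without Meg3 over pools, and Plac8, Hnrnpa1, Stmn1 and Ppia did. The share of all 1375 genes tested that did not overlap was not counted. H2-DMa, a histocompatibility gene outside the naming rule and picked after its value was seen, fell by 1.36 (SE 0.31) but was lower in 7 of 8 pools. Ctsb and Cd74, likewise outside the rule and picked after their values were seen, rose by 1.06 (SE 0.32) and 1.03 (SE 0.26). They were higher in 6 and 5 of 8 pools.

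**Figure D3:**
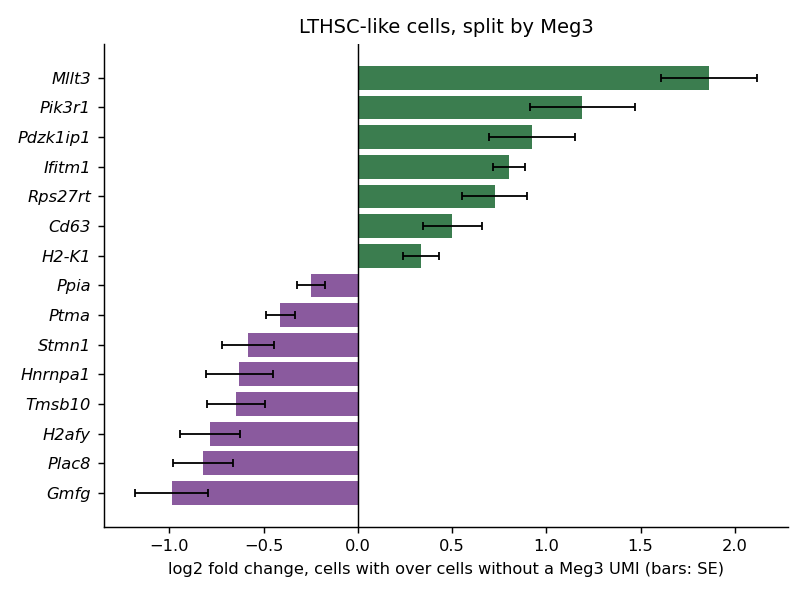
Log2 fold change (x axis) of 7 higher and 8 lower genes that passed the test and went the same way in every pool, LTHSC-like cells with over cells without a Meg3 UMI, with bars for the SE from edgeR. Of these 15 genes Mllt3 has the largest rise at 1.86 and Gmfg the largest fall at -0.99.

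The listed genes were read against the 3.93% of all genes. Of 30 stem cell genes 15 were tested and 6 rose, among them Mllt3, Ifitm1, Ifitm3 (0.61, SE 0.09) and Pdzk1ip1, and the median of the 15 was 0.39 against -0.01 over all genes tested. Ly6a (0.66, adjusted p = 0.067), Mecom (0.33) and Hlf (0.02) did not pass. The list had been chosen with earlier results of these data known. Of 4 cyclins and their kinases 0 passed in edgeR, where 3 had an unadjusted p under 0.05 (Ccnd2 0.47, Ccnd3 0.72 and Cdk4 -0.50) and DESeq2 gave 0, and 0 of 24 genes of mitosis and 1 of 20 genes of DNA replication (Slbp, -0.03) could be tested. With all UMIs of each cell, 8 genes of DNA replication were tested and all 8 lay below 0 with a median of -0.47, but 0 passed in edgeR, where 2 had an unadjusted p under 0.05, the helicase subunit genes Mcm2 (-0.88, adjusted p = 0.32) and Mcm7 (-0.58, adjusted p = 0.35). Of 20 genes of growth factor signalling 2 were tested, Kit (-0.21) and Pik3r1, the one that rose. Of 6 other imprinted genes 0 passed in edgeR, with 0 at an unadjusted p under 0.05 and 0 called in DESeq2, and the median was 0.20. With all UMIs of each cell in place of thinned ones, 73 genes passed, among them Cdkn1c at 1.26 (SE 0.26, adjusted p = 0.0015), which was under the filter on low counts after thinning, and the D-type cyclin genes Ccnd2 and Ccnd3. Of the 40 higher genes 20 encode ribosomal proteins, a group picked after its values were seen, with small changes such as 0.15 for Rps29 and 0.31 for Rps21. These directions rest on scaling to the tested genes. Without the filter on low counts the median of all genes shifted to -0.65, 520 genes passed, 512 of them lower, and 28 of the 54 genes kept their sign.

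Housing was compared first in all KL cells, where Meg3 and Ndn were each lower on average in CVT mice but did not pass the test over all genes. Meg3 stood at 2.52, 1.74, 3.23 and 2.28 CPM in SPF pools 1, 2, 7 and 8 and at 0.556, 0.585, 1.81 and 1.77 CPM in CVT pools 3, 4, 5 and 6. CVT pools 3 and 4 were far below the rest, and pools 5 and 6 overlapped the lowest SPF pool. The log2 fold change of CVT over SPF was -1.01 (SE 0.40, unadjusted p = 0.032, adjusted p = 0.68 in edgeR), from 2.44 ± 0.619 to 1.18 ± 0.706 CPM (SD, n = 4 pools each). Ndn stood at 1.94, 1.44, 1.97 and 1.62 CPM in SPF pools and at 0.452, 0.635, 1.34 and 0.987 CPM in CVT pools, in the same order of pools, with no overlap. Its log2 fold change was -0.99 (SE 0.30, unadjusted p = 0.0090, adjusted p = 0.67 in edgeR), and an exact two-sided permutation test over 70 regroupings gave p = 0.029 for Ndn alone, the smallest they can give, before any correction. Grb10 had close means, with 10.05 ± 2.18 CPM in SPF and 9.78 ± 0.836 CPM in CVT pools (SD, n = 4) and a log2 fold change of 0.02 (SE 0.13, adjusted p = 0.98).

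These counts stand against the background of all genes. In KL cells 0 of 13092 genes (0%) passed an adjusted p of 0.05 in edgeR, while 529 (4.04%) had an unadjusted p under 0.05 with a lower level in CVT mice and 392 with a higher one. By DESeq2 30 genes were called, of which 2 were lower, but 12183 of its 13090 genes had no adjusted p and could not be called. Pools of CVT mice lay below all SPF pools without overlap for 688 genes (5.26%). H19 and Mirg were under the filter on low counts and had no test. DESeq2 gave no adjusted p for the members tested, since they fell under its own filter on mean counts.

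CVT pools 3 and 4, the lowest in Meg3 and Ndn, were also lowest in LTHSC-like cells. The share of these cells was 4.03%, 4.81%, 4.85% and 7.23% of KL cells in SPF pools 1, 2, 7 and 8 and 1.53%, 1.604%, 4.22% and 4.31% in CVT pools 3, 4, 5 and 6. The other pools did not keep this order. SPF pool 1 had a lower share than CVT pools 5 and 6 but higher Meg3 and Ndn. With LTHSC-like cells left out, the log2 fold change in KL cells was -0.65 (SE 0.51) for Meg3 and -0.78 (SE 0.28) for Ndn. Leaving out pools 3 and 4 gave -0.36 (SE 0.25) and -0.50 (SE 0.23). Within pools 1 to 4 alone it was -1.77 (adjusted p = 0.018) for Meg3 and -1.51 (adjusted p = 0.042) for Ndn in edgeR, a comparison of 2 pools against 2 in which 146 of 13279 genes (1.1%) passed, and within pools 5 to 8 alone -0.54 and -0.56 (adjusted p = 0.88 for both). The difference between the sets did not pass a test of the interaction (adjusted p = 0.54 for Meg3 and 0.55 for Ndn in edgeR), and with the pool set as a block the adjusted p was 0.18 for both. With the runs that leave out 1 pool counted as well, the adjusted p in edgeR ranged from 0.018 to 1.0 for Meg3 and from 0.042 to 1.0 for Ndn, the highest being without CVT pool 3.

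**Figure D4:**
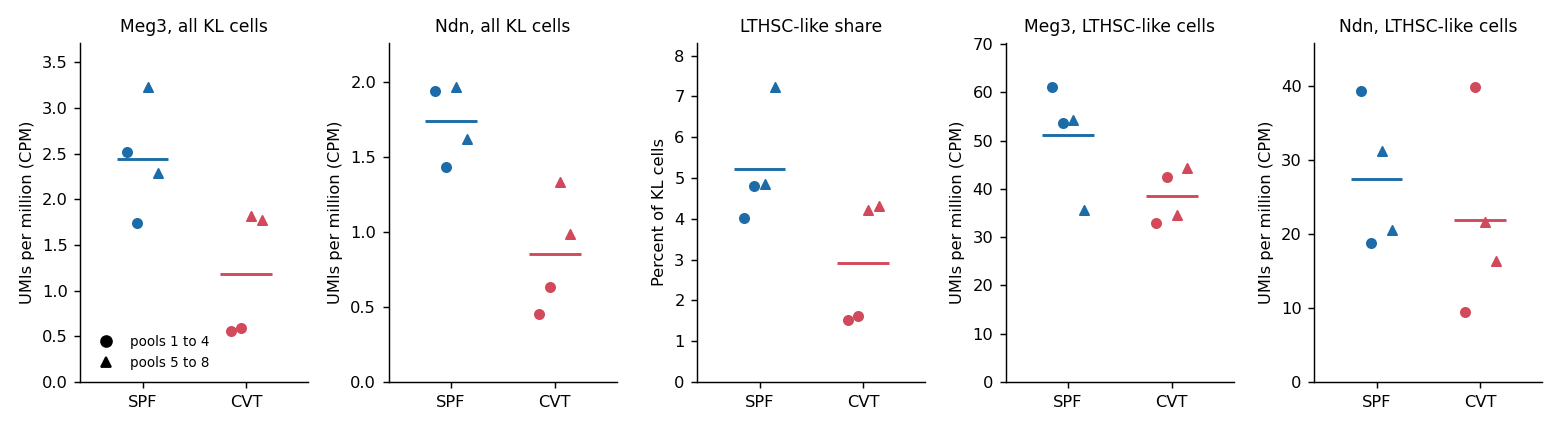
Meg3 and Ndn in CPM of all KL cells and of LTHSC-like cells, and the percent of KL cells that were LTHSC-like (y axes), in 4 SPF and 4 CVT pools (x axis), with 1 point per pool, bars at the group means, circles for pools 1 to 4 and triangles for pools 5 to 8. CVT pools 3 and 4 are lowest for Meg3 in all KL cells (0.556 and 0.585 CPM) and for the LTHSC-like share (1.53% and 1.604%), whereas Meg3 within LTHSC-like cells is 33.0 to 44.4 CPM in CVT and 35.5 to 61.1 CPM in SPF pools.

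Within LTHSC-like cells the housing groups overlapped for each member tested. Meg3 was 51.1 ± 10.9 CPM in SPF and 38.6 ± 5.65 CPM in CVT pools (SD, n = 4), with a log2 fold change of -0.22 (SE 0.19, adjusted p = 0.96 in edgeR). Ndn was 27.5 ± 9.64 and 21.9 ± 13.03 CPM, with -0.16 (SE 0.29, adjusted p = 0.996), and Grb10 was 26.6 ± 6.56 and 30.6 ± 7.96 CPM, with 0.29 (SE 0.23, adjusted p = 0.95). In these cells 1 of 7302 genes (0.0137%) passed in edgeR, the chemokine gene Ccl5, and 414 had an unadjusted p under 0.05. The share of LTHSC-like cells with a Meg3 UMI after thinning was 7.24 ± 2.63% in SPF and 5.59 ± 0.496% in CVT pools (SD, n = 4), a difference of -1.65 percentage points (exact two-sided permutation p = 0.26, the smallest possible being 0.029). Before thinning the shares were 10.97 ± 2.83% and 8.29 ± 0.804%. Without SPF pool 8 the difference was -2.43 points, and without SPF pool 7 it was -0.391 points.

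In the other classes the members above the filter on low counts did not pass in edgeR. Meg3 in LMPP-like cells had a log2 fold change of -0.08 (SE 0.61, adjusted p = 1.0 in edgeR), where 0 of 10218 genes (0%) passed. Grb10 had 0.06 (SE 0.25) in MPP-like, 0.08 (SE 0.15) in CMP-like, -0.10 (SE 0.12) in MEP-like and -0.05 (SE 0.32) in GMP-like cells, each with an adjusted p of 1.0 in edgeR. In these classes 0 of 9643 (0%), 0 of 9913 (0%), 0 of 10392 (0%) and 0 of 10027 (0%) genes passed. At an unadjusted p under 0.05 there were 521 genes in LMPP-like, 508 in MPP-like, 376 in CMP-like, 408 in MEP-like and 587 in GMP-like cells, and DESeq2 called 0, 0, 1, 1 and 0. Grb10 in LMPP-like cells was under the filter, and the pools did not overlap. It stood at 0.730, 0.611, 1.33 and 1.11 CPM in SPF pools 1, 2, 7 and 8 and at 2.33, 1.36, 2.09 and 1.45 CPM in CVT pools 3, 4, 5 and 6, each from 1 to 10 UMIs. The means were 0.947 ± 0.335 and 1.81 ± 0.476 CPM (SD, n = 4; exact two-sided permutation p = 0.029, the smallest possible and not adjusted), and 0.793% of the 10218 genes tested in these cells were higher in every CVT pool than in every SPF pool. It was 1 of 35 such comparisons of a member in a class or in KL cells, of which 2 did not overlap. Without the filter its adjusted p was 0.85 in edgeR, and after thinning the shares of cells with a Grb10 UMI overlapped. Ndn outside LTHSC-like cells was under the filter on low counts in each class. Its level was 3.28 ± 0.666 CPM in SPF and 2.54 ± 0.226 CPM in CVT pools of MPP-like cells (SD, n = 4), which overlapped.

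Other imprinted genes were read for comparison from a list of 59, of which 57 have a row and 46 had a UMI. Of these, 15 exceeded 20 CPM in LTHSC-like or KL cells, and 4 had a mean in LTHSC-like cells at least 2 times that of KL cells. They were Cdkn1c, at 35.2 ± 9.78 CPM against 2.37 ± 0.577 CPM, the sarcoglycan gene Sgce, at 26.3 ± 5.80 against 4.98 ± 0.914 CPM, Phlda2, at 37.8 ± 5.13 against 7.83 ± 1.10 CPM, and Ppp1r9a, which encodes neurabin, at 36.2 ± 6.24 against 7.71 ± 1.52 CPM (SD, n = 8). Sgce and Ppp1r9a are neighbours in 1 imprinted cluster, as are Cdkn1c and Phlda2 in another. Most of the 15 were expressed throughout, among them Gnas (513 and 462 CPM), which encodes a stimulatory G protein subunit, Cd81 (346 and 207 CPM) and the non-coding RNA Kcnq1ot1 (329 and 218 CPM). Gatm, which makes the precursor of creatine, was lower in LTHSC-like cells, at 27.6 ± 8.03 against 81.0 ± 10.1 CPM (SD, n = 8). Between housing groups 31 of these genes were tested in KL cells and 0 passed in edgeR, where 6 had an unadjusted p under 0.05, all 6 lower in CVT, and DESeq2 called 0. Over all 13092 genes tested, 921 had such a p, 529 of them lower. Of the 31 imprinted genes, 22 lay below 0 and 9 above, with a median log2 fold change of -0.05, while 7010 of the 13092 genes lay below 0 and their median was -0.01.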

How the data were processed

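KL cells of 8 pools were profiled with the 10x Genomics 3' v2 kit. The authors aligned reads, assigned barcodes and counted UMIs with Cell Ranger, and the submitters' processing notes name mm9 as the build. The deposited counts are raw UMI counts of 27998 genes in 29891 cells, without normalization, and every cell held at least 2759 UMIs. Pools were read from the number that ends each cell name and matched to the numbered sample descriptions. The numbers of cells per housing group that the study states differ slightly from this match, so the housing comparison rests on it, while levels by class do not. Columns without a sample numbered 0.

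The members and gene lists were chosen with earlier results of these data known. Cells were clustered without imprinted genes (1000 variable genes, 30 principal components, 30 neighbours, Leiden resolution 2 with leidenalg 0.10.2, scanpy 1.11.5 and Python 3.11.15) into 34 clusters, and a cluster was named from at least 3 markers among its 100 most specific genes. Class names were thus rebuilt and can differ from the study's. Scrublet called 92 cells doublets, too few to be relied on, so no cell was removed. Sums of counts over the cells of a pool went into edgeR 4.0.16 (glmQLFit, TMM, filterByExpr, R 4.3.3) with Benjamini-Hochberg adjustment at 0.05, and the Meg3 comparison had the pool as a block. Its named genes were in each direction, the 8 called genes of largest change that went the same way in all pools. Of these, 1 gene is not reported here. For single values the exact permutation test over pools was used. Nothing states that pools of one group came from separate cages, so p-values of the housing comparison measure the spread between these pools. Those of the Meg3 comparison rest on few cells per pool and on a spread that edgeR shares over genes. They do not measure how far a single gene varied between pools. Apoe, for one, passed in edgeR (adjusted p = 0.00015) while higher in 4 pools and lower in 4. Fits were tested on simulated data. Alternatives were RLE scaling, no filter, DESeq2 1.42.0, a pool set block, thinning or not, doublets left out, resolution 1, a gate on Procr with Hlf or Mecom, and each pool left out in turn. Chosen after seeing the data were the top 5% of doublet scores left out, LTHSC-like cells left out, each pool set alone and pools 3 and 4 left out. Intervals are exact binomial (95%), and the limit for a count of 0 is 3 counts.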

Additional observations from a re-analysis of the deposited data

Results flagged for a closer look

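Grb10 in LTHSC-like cells of CVT pool 3 stood at 42.5 CPM, far from the other CVT pools at 25.1 to 27.6 CPM, and its gap passed Dixon's 95% critical value for 4 samples. The value rests on 18 UMIs in 74 cells. It was the only one found in 29 groups of 4 pools tested, where chance alone gives about 1 in 20. In that pool Ndn was at its lowest of all pools in these cells (9.44 CPM) and Meg3 likewise (33.0 CPM).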

How the results depend on the processing

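The housing log2 fold changes of Meg3 and Ndn in KL cells kept their direction under every alternative run, from -1.28 to -0.76 for Meg3 and from -1.27 to -0.76 for Ndn with each pool left out, and passed only within pools 1 to 4. In KL cells DESeq2 called 30 genes, the pool set block 4 and pools 1 to 4 alone 146, and the number was 0 with each pool left out. In LTHSC-like cells there were 27 genes without the filter on low counts, 0 with DESeq2 and at resolution 1, 2 with the block, 19 within pools 1 to 4, 8 within pools 5 to 8, 7 without pools 3 and 4, and 1 to 3 with a pool left out. Without the filter, MPP-like, LMPP-like, CMP-like, MEP-like and GMP-like cells gave 32, 34, 28, 4 and 36 genes. DESeq2 gave 1 in CMP-like and 1 in MEP-like cells, and the block gave 2 in MPP-like, 1 in LMPP-like and 5 in GMP-like cells. With a pool left out the ranges were 0 to 4 (MPP-like), 0 to 3 (CMP-like) and 0 to 1 (GMP-like), and the highest of each came without CVT pool 6. No member was called in these alternatives. The comparison by Meg3 gave 34 genes with DESeq2, all among the 54, and 30 to 58 with a pool left out. At resolution 1 it gave 87 genes (30 higher, 57 lower), and 30 of the 87 were among the 54. With the gate it gave 55 genes (22 higher, 33 lower), and 28 of the 55 were among the 54. It gave 520 without the filter, where Cd63 (-0.13) and H2-K1 (-0.31) reversed, and where Ndn stood at 1.37 (SE 0.44, adjusted p = 0.051). The difference in the share of LTHSC-like cells with Meg3 ranged from -2.43 to -0.391 points with a pool left out, and -2.43, without SPF pool 8, was the one to pass alone (exact permutation p = 0.029, of 35 regroupings). With imprinted genes kept in the clustering the LTHSC-like levels were 20.4 (Meg3), 14.9 (Grb10) and 11.1 CPM (Ndn), in a class of 2912 cells that took in a further cluster led by Hlf. The cause of these changes was not tested. No paired analysis was possible because housing groups share no pool number. Low UMI counts limit Ndn outside LTHSC-like cells, and H19 and Mirg everywhere.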

Other observations

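Members were also found outside the 6 progenitor classes, in levels that describe single clusters summed over pools. Grb10 was present in an unnamed cluster of 1540 cells led by Csrp3, Trib2, Apoe and Gata2, with 26.8 CPM, close to the 28.3 CPM of the MEP-like cluster of 1302 cells led by Aqp1 and Car1, and at 11.7 CPM in 264 late granulocyte-like cells led by Retnlg and Mmp8, where it rests on 31 UMIs. Within MEP-like cells it was 15.4 CPM in the cluster led by Rhd and Cldn13 and 1.16 CPM in 137 haemoglobin-rich cells, the latter from 2 UMIs. Ndn was found at 2.85 CPM in 591 megakaryocyte-like cells led by Pf4 and Ppbp and at 2.87 CPM in an unnamed cluster of 894 cells led by histone genes and Dntt, near its level in MPP-like cells. Meg3 was at 0.569 CPM in those megakaryocyte-like cells, from 3 UMIs.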
